A study of Xenopus laevis with 5 samples.

Results

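Egg chromatin is used here as a label for 5 genes: the linker histones h1-8 and h1-3, the histone chaperone npm2 (nucleoplasmin), and the core histones h2ac17 and h2ac1. Of these, only h1-8 and npm2 are described below as egg proteins. Whether h1-3, h2ac17 and h2ac1 are egg forms was not tested. They were chosen by symbol, with the difference between simazine and control testes already known, and every probe whose transcript accession belongs to one of these symbols was taken. This gave 9 of the 43653 gene probes on the array and 5 of its 8263 named genes. Because the contrast chose the genes, their values are given as a description and no test is applied to them.

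The samples were testes of male Xenopus laevis, the African clawed frog. Developing tadpoles were kept for 90 days in water with simazine, a chlorotriazine herbicide, at 100 µg/L (3 samples), or in water with 0 µg/L (2 controls). Water temperature, light and food were the same for both groups, and total RNA from each testis sample was labelled with Cy3 and hybridised to its own one-colour Agilent array. The labels do not say whether the testes of a group came from separate animals, so the p-values below rest on a spread among 5 samples that could be technical in part or whole.

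In the nucleus, DNA is wound around an octamer of core histones, of which H2A is one type, and linker histones of the H1 family bind where the DNA enters and leaves that particle. Frog oocytes and eggs store histones and their chaperones for the fast divisions that follow fertilisation. The egg's linker histone H1-8 (also called B4 or H1M) takes the place of the somatic H1 proteins in the early embryo, and nucleoplasmin binds H2A with H2B and unpacks the chromatin of the incoming sperm. The symbol h1-3 is that of a somatic type H1 gene in mammals.

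Levels are log2 of the scanner software's processed signal minus the 75th percentile of that array, so that 0 is the 75th percentile of all gene spots. That percentile was a signal of 1564 to 4883 on the simazine arrays and of 2380 and 6693 on the control arrays. The arrays fall into 2 scan times: simazine 2 and control 1 share the first, and simazine 1, simazine 3 and control 2 share the second. The scanner software marked 9.59%, 42.6% and 5.78% of the spots of simazine 1, 2 and 3 as uneven or as outliers, and 44.0% and 9.999% of those of control 1 and 2. Marked spots were kept. Areas of the array in which neighbouring spots moved together by more than 0.5 on the log2 scale were left out of the fit across probes, which removed 25.5% of the spots.

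All 9 egg chromatin probes were lower on every simazine array than on either control array. Their differences between the group means ran from -6.25 to -2.71 on the log2 scale, with a median of -4.39, which is 6.56-fold to 75.9-fold lower. The gap between the highest simazine array and the lowest control array ran from 2.10 to 5.24. Among the 36381 probes of the array with such areas kept, 10.6% were lower on every simazine array than on either control array, and 4.1% were so and also at least 4-fold lower. Outside such areas, where 8 of the 9 probes and all 5 genes could be measured, the shares were 6.85% and 1.23% of probes and, for the lower levels alone, 8.47% of named genes. Nothing is read from these shares, because the genes were chosen on this contrast. All 45 values of the 9 probes were well above background and none was saturated. In a whole organ, fewer cells of a type and less RNA per cell cannot be told apart.

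**Figure D1:**
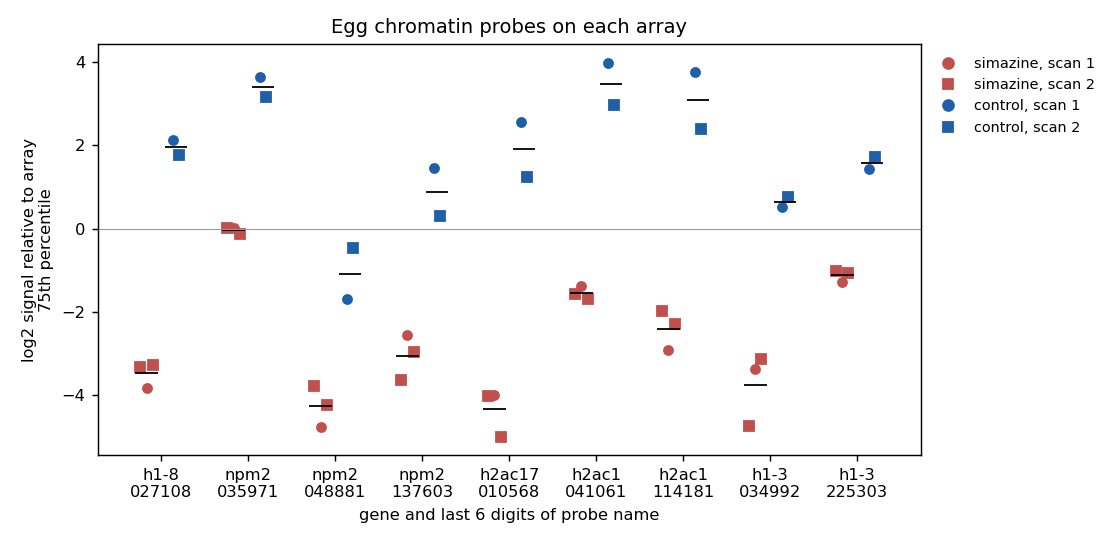
Level of each egg chromatin probe on each array, as log2 signal relative to the array's 75th percentile (vertical axis), by gene and probe (horizontal axis); each point is 1 array, colours mark the groups and symbols the scans. The simazine arrays lie below both control arrays for all 9 probes, with gaps of 2.10 to 5.24.

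The linker histone of the egg, h1-8, had 1 probe (A_10_P027108, homeolog h1-8.S, one of the pair of gene copies that this tetraploid frog carries). Its level was -3.32, -3.84 and -3.28 on simazine arrays 1, 2 and 3, and 2.14 and 1.78 on control arrays 1 and 2. Its processed signals were 247, 340 and 161 on the simazine arrays, against 29445 and 8159.6 on the control arrays. The 3 simazine arrays lay close together, and the lowest control array was 5.06 above the highest of them. Mean levels were -3.48 ± 0.31 in simazine testes (SD, n = 3) and 1.96 ± 0.25 in control testes (SD, n = 2), a difference of -5.44 (SE 0.332), or 43.4-fold lower.

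The second linker histone, h1-3, had 2 probes, both of the homeolog h1-3.L. The brighter one (A_10_P225303) had levels of -1.01, -1.29 and -1.07 in simazine testes, against 1.44 and 1.73 in control testes. The difference was -2.71 (SE 0.289), 6.56-fold lower, and it was the smallest of the 9 probes. The other probe (A_10_P034992) had levels of -4.75, -3.39 and -3.15 in simazine testes, against 0.51 and 0.75 in control testes, a difference of -4.39 (SE 0.563). This second probe is the only one of the 9 in an area where neighbouring spots moved together: its neighbours deviated by -0.60 on simazine 2, by 0.49 on control 1 and by 1.20 on control 2. Its value comes from the fit with such areas kept. The part of these deviations in its difference was not tested.

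Nucleoplasmin, npm2, had 3 probes, all of the homeolog npm2.L. The brightest (A_10_P035971) had levels of 0.00, 0.01 and -0.14 in simazine testes and of 3.65 and 3.16 in control testes. Its difference of -3.45 (SE 0.301) is 10.9-fold lower, and its simazine arrays sat at about the 75th percentile of the array. The second probe (A_10_P048881) had levels of -3.80, -4.78 and -4.23 in simazine testes, against -1.70 and -0.47 in control testes. The remaining probe (A_10_P137603) had levels of -3.65, -2.57 and -2.97 in simazine testes, against 1.46 and 0.31 in control testes. These 2 probes differed by -3.18 (SE 0.510) and -3.95 (SE 0.514), so that the 3 probes of this gene gave 9.09-fold to 15.5-fold lower signal. The control arrays disagreed in order among them: control 2 was the higher for A_10_P048881 and control 1 for the other two.

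Of the core histones, h2ac17 had 1 probe (A_10_P010568, h2ac17.L) with levels of -4.03, -3.99 and -5.01 in simazine testes, against 2.56 and 1.25 in control testes. The processed signals were 152, 306 and 48.7 on the simazine arrays, against 39386 and 5655 on the control arrays. Means of -4.34 ± 0.57 (SD, n = 3) in simazine testes and 1.90 ± 0.93 (SD, n = 2) in control testes differed by -6.25 (SE 0.549), or 75.9-fold, the largest difference of the 9 probes. The SD of the 2 control arrays was also the largest among the brightest probes of the 5 genes.

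The second H2A gene, h2ac1, had 2 probes of the homeolog h2ac1.S. The brighter (A_10_P041061) had levels of -1.57, -1.39 and -1.69 in simazine testes, against 3.99 and 2.97 in control testes, a difference of -5.03 (SE 0.395). The other (A_10_P114181) had levels of -1.99, -2.92 and -2.30 in simazine testes, against 3.78 and 2.40 in control testes, a difference of -5.50 (SE 0.533). Both probes thus gave a difference of about the same size, 32.8-fold and 45.1-fold lower. Histone genes form families of near-identical copies, and a probe may bind the transcripts of more than one copy, so the assignment of signal to one H2A or H1 gene is uncertain.

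Across the 9 probes no single simazine array was always the lowest: simazine 1 was lowest for 2, simazine 2 for 4 and simazine 3 for 3 probes. Control 1 was above control 2 for 6 of the 9. Among the brightest probes of the 5 genes, the profiles over the 5 arrays, each centred on its own mean, lay closest for h1-8 and h2ac1, with a root mean square distance of 0.409, followed by npm2 and h1-3 at 0.453. The most distant pair was h2ac17 and h1-3 at 1.85. These distances describe genes chosen for a common direction and carry no test.

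Of the 45 values, 17 came from marked spots, and 16 of these were among the 18 values of the first scan, against 1 of the 27 values of the second. Of the 9 probes, 7 were marked on simazine 2 and none on simazine 1 or simazine 3, whereas 9 were marked on control 1 and 1 on control 2. Each scan holds both groups, so that the difference was also taken within each. Within the first scan, where simazine 2 stands against control 1, the differences were -6.70 to -2.74. Within the second, where simazine 1 and 3 stand against control 2 and nearly all spots were unmarked, they were -5.77 to -2.77. The difference was the larger within the first scan for 6 of the 9 probes. For h1-8 it was -5.98 within the first scan and -5.08 within the second, and -5.47 (SE 0.264) with scan as a block.

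**Figure D2:**
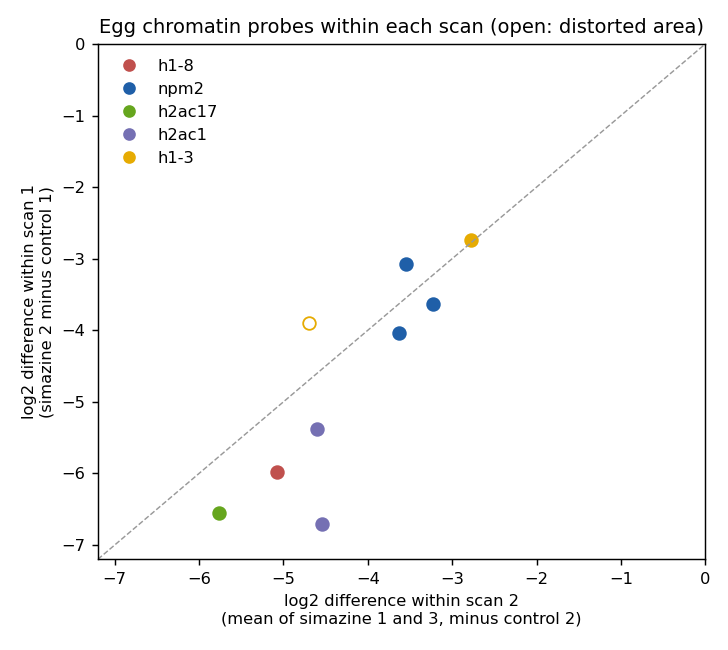
Difference between simazine and control testes of each egg chromatin probe within the second scan (simazine 1 and 3 against control 2) and within the first (simazine 2 against control 1), in log2 units; each point is 1 probe, coloured by gene, and the open point is the h1-3 probe in a distorted area. All points lie between -6.70 and -2.74 on both axes.

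None of the 2 tested genes on the list of other linker histones passed limma's test at an adjusted p under 0.05 (Benjamini-Hochberg over 26996 probes), at which 0.711% of the 6892 named genes tested were lower and 0% higher in simazine testes, and none reached an unadjusted p under 0.05. The brightest probe of h1-10, a replication-independent linker histone, had levels of 5.92, 5.66 and 5.33 in simazine testes, against 5.89 and 5.87 in control testes, a difference of -0.25 (SE 0.310, 95% interval -1.02 to 0.53, limma adjusted p = 1.00). Its other probes differed by -1.005 and -0.46. The brightest probe of h1-6, named after the testis linker histone of mammals, had levels of -2.71, -1.27 and -2.39 in simazine testes, against -0.73 and -1.21 in control testes. It differed by -1.16 (SE 0.511, 95% interval -2.44 to 0.13, limma adjusted p = 1.00), and its other probes by -0.66 and 0.04. The simazine and control arrays overlapped for the brightest probe of h1-10. For that of h1-6 they did not, by a gap of only 0.06, where 8.47% of named genes were lower on every simazine array. The mean level of these 2 genes was 1.47 to 2.19 on the simazine arrays and 2.33 to 2.58 on the control arrays. Whether h1-8 or h1-3 differed more than these linker histones was not tested.

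Among other core histones, 3 of 7 genes on the array could be tested, and none passed the test. Their median difference was -0.09, with a range of -0.20 to 0.19, against a median of -0.00 over all named genes tested. The H3 gene h3c13 differed by -0.20 (SE 0.358, 95% interval -1.10 to 0.70, limma adjusted p = 1.00). The H2A gene h2ac14 differed by 0.19 (SE 0.339, 95% interval -0.66 to 1.04, limma adjusted p = 1.00), beside -6.25 for h2ac17 and -5.03 for h2ac1. Its levels were low, at -3.41, -3.53 and -3.02 in simazine testes and -3.79 and -3.23 in control testes. The control means of h2ac17 and h2ac1 were 1.90 and 3.48, so these differences were taken at unlike levels. The other probe of h2ac14 differed by 0.05 and was above background on 2 of 5 arrays. The other 4 core histone genes had no probe that was both outside distorted areas and above background on enough arrays.

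Of the histone variants, which replace core histones outside replication, 6 of 8 genes were tested and none passed, with a median of -0.50 and a range of -0.87 to 0.23. The H2A.Z gene h2az2 differed by -0.87 (SE 0.626, 95% interval -2.44 to 0.70) and the centromere histone cenpa by -0.38 (SE 0.296, 95% interval -1.12 to 0.36), both with a limma adjusted p of 1.00. Over the 25 tested probes of the other linker, core and variant histones, 5 were lower on every simazine array than on either control array, where 6.85% of all tested probes were. Of the 25, 1 was also at least 4-fold lower, where 1.23% of all tested probes were. This probe of h2az1 (A_10_P009573) had levels of -3.02, -2.95 and -3.37 in simazine testes, against -0.82 and -1.37 in control testes, a difference of -2.02 with a limma adjusted p of 0.157. The brightest probe of the same gene differed by -0.78, and this probe was singled out after its values were seen.

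**Figure D3:**
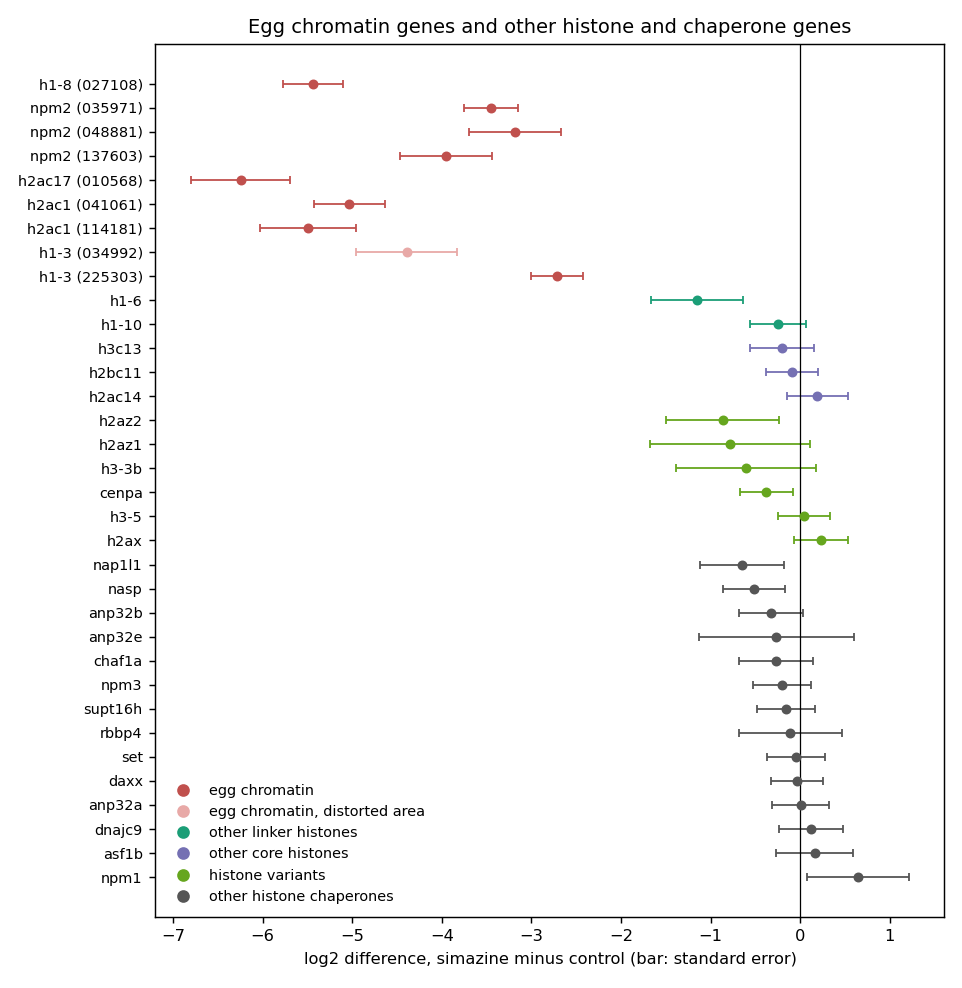
Log2 difference between simazine and control testes for all 9 egg chromatin probes (last 6 digits of the probe name in brackets, the paler one in a distorted area) and for the brightest probe of each other linker, core and variant histone gene and chaperone; bars are standard errors. The egg chromatin probes, whose genes were chosen on this contrast, run from -6.25 to -2.71. The brightest probes of the other linker, core and variant histones run from -1.16 to 0.23. All tested probes of these other histones ran from -2.02 to 0.94. Their probes in distorted areas, which are not plotted, ran from -2.50 (macroh2a2) to 2.85 (h4c4).

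Neither npm1 nor npm3, the relatives of nucleoplasmin, passed the test. The brightest tested probe of npm1, the nucleolar member of the family, had levels of 3.73, 2.48 and 2.11 in simazine testes, against 2.46 and 1.81 in control testes, a difference of 0.64 (SE 0.569, 95% interval -0.79 to 2.07, limma adjusted p = 1.00). The brightest probe of npm3, the third member of the family, had levels of 1.08, 1.59 and 1.39 in simazine testes, against 1.77 and 1.33 in control testes. Its difference was -0.20 (SE 0.324, 95% interval -1.01 to 0.61, limma adjusted p = 1.00). The simazine and control arrays overlapped for these probes of both genes. The other probes of npm3 differed by -0.63 to -0.06. Of these, A_10_P037496 and A_10_P256432 were lower on every simazine array than on either control array, with gaps of 0.14 and 0.007. The same was so for 6.85% of all tested probes.

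Over the whole list of other histone chaperones, 14 of the 17 genes on the array were tested and none passed, nor did any reach an unadjusted p under 0.05 or lie lower on every simazine array than on either control array by its brightest probe. Over the 42 tested probes of this list, 5 were lower on every simazine array than on either control array, where 6.85% of all tested probes were. Of the 42, 1 reached an unadjusted limma p under 0.05, as did 1038 of all 26996 tested probes. By brightest probe, the median difference of the 14 genes was -0.14 and the range -0.65 to 0.64. The 2 with the smallest p were nap1l1, which carries H2A with H2B as nucleoplasmin does, at -0.65 (SE 0.468, 95% interval -1.83 to 0.52), and nasp, which carries H3, H4 and linker histones, at -0.52 (SE 0.345, 95% interval -1.39 to 0.35), each with a limma adjusted p of 1.00.

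Genes that process histone mRNA gave the same count. None of the 9 tested passed, with a median of -0.20. The stem-loop binding protein slbp differed by -0.54 (SE 0.460) and a gene under the provisional symbol XB5920187, whose listed synonym is slbp2, by -0.28 (SE 0.315), both with a limma adjusted p of 1.00. In frog oocytes slbp2 is known for holding stored histone mRNA inactive.

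Other proteins of the egg nucleus and modifiers of chromatin were listed as well, and none of the 19 tested genes passed, with a median of -0.15. The acetyltransferase kat7 differed by 0.84 (SE 0.391, 95% interval -0.14 to 1.82) and the A-type lamin lmna by -0.90 (SE 0.534, 95% interval -2.24 to 0.44), both with a limma adjusted p of 1.00. The brightest tested probe of lmnb3, the main lamin of the frog oocyte nucleus, had levels of 0.16, 0.93 and 0.29 in simazine testes, against 0.83 and 0.08 in control testes. Its difference was 0.01 (SE 0.406, 95% interval -1.01 to 1.02, limma adjusted p = 1.00), and its other probes outside distorted areas differed by -0.49 and -0.62. Both of these other probes were lower on every simazine array than on either control array, with gaps of 0.15 and 0.21. Of all tested probes, 6.85% were so.

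Among genes of DNA replication, which histone supply accompanies in dividing cells, 1 of 25 tested fell and none rose, where 0.711% of named genes fell. Over the 55 tested probes of this list, 12 were lower on every simazine array than on either control array, where 6.85% of all tested probes were. Of the 55, 8 reached an unadjusted limma p under 0.05, as did 1038 of all 26996 tested probes. The median difference of the list was -0.25, and its mean level was 1.23 to 1.37 on the simazine arrays, against 1.71 and 1.45 on the control arrays. That separation was lost without 1 gene, mcm3, a setting chosen after seeing the data. The mean of the other 24 genes was then 1.49, 1.66 and 1.499 on simazine arrays 1, 2 and 3. On control arrays 1 and 2 it was 1.87 and 1.60, so the groups overlapped. Leaving out other single genes was not tried, so these values do not tie the separation to mcm3 alone. The gene that fell was mcm3, a subunit of the replicative helicase. Its level was -4.999, -5.42 and -5.09 in simazine testes, against -2.16 and -2.12 in control testes, a difference of -3.03 (SE 0.292, 8.17-fold lower, limma adjusted p = 0.0323), by its only probe. This call was lost without any 1 of the 5 arrays, with limma adjusted p of 0.0709 to 0.297, and the difference was then -3.11 to -2.91.

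**Figure D4:**
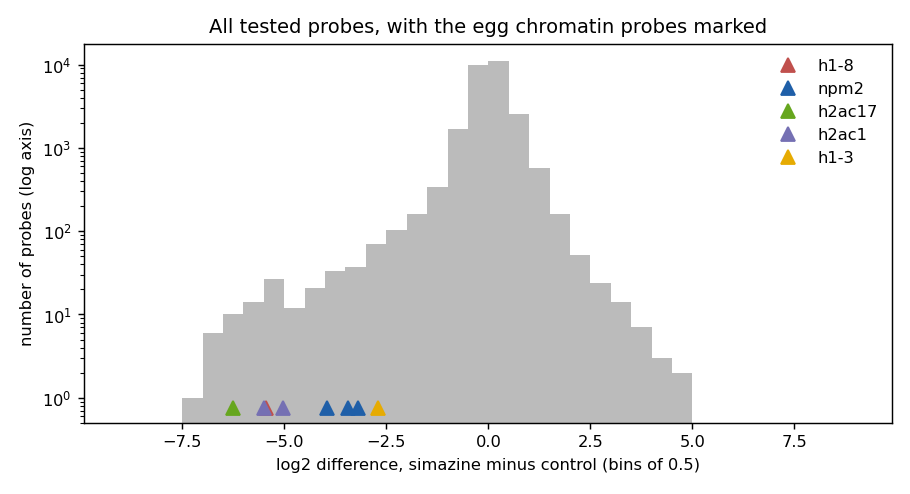
Number of tested probes (vertical, log axis) by log2 difference between simazine and control testes (horizontal, bins of 0.5), with the egg chromatin probes marked. The median over all probes is 0.03, and the egg chromatin probes lie between -6.25 and -2.71.

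Over all 26996 tested probes the median difference was 0.03 with an SD of 0.63. At an adjusted p under 0.05, 0.385% were lower and 0.0148% higher in simazine testes. The named genes whose profile over the 5 arrays was nearest to that of the h1-8 probe, by root mean square distance among 6562 candidates, were birc5 (0.159), btg5.1 (0.166), zpax (0.302), upk3a (0.311) and hba-l5 (0.362). The inhibitor of apoptosis birc5, also a subunit of the chromosomal passenger complex, had levels of -5.82, -6.30 and -5.82 in simazine testes, against -0.76 and -0.78 in control testes. The egg coat gene zpax was above background on a single simazine array, so its difference of -5.03 is partly set by the background. The differences of the others were -5.50 for btg5.1, -5.42 for upk3a and -5.20 for hba-l5, an alpha globin gene. This likeness was measured on the same 5 arrays that chose h1-8 and is a description.

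Several other marker lists moved beside the egg chromatin genes. The mean level of the 5 egg chromatin genes was -2.24 to -1.99 on the simazine arrays and 2.18 to 2.76 on the control arrays. That of 19 oocyte and egg genes was -2.57 to -2.17 on the simazine arrays and 0.95 to 1.06 on the control arrays, and 10 of the 19 fell and none rose, where 0.711% of named genes fell and 0% rose. Among them, the maternal POU factor pou5f3.3 differed by -6.01 (limma adjusted p = 0.00982) and the egg coat gene zp4 by -5.98 (limma adjusted p = 0.0444). These 2 had the largest differences of the list. Its genes that were not called ran from -4.53 for velo1 to 0.02 for ybx2. They included zp2 at -3.21, but also cpeb1 at -0.43 and vegt at -0.22. Epithelial and epidermal genes had a mean level of -0.80 to -0.10 on the simazine arrays and of 1.90 to 2.44 on the control arrays, and 3 of 8 fell, again beside 0.711% of named genes. Of these, cldn6.1, a tight junction gene, differed by -6.74 and upk3a, a uroplakin gene, by -5.42. The latter was also among the 5 named genes nearest to h1-8 in profile. The cell type in which they were expressed here was not tested. The genes of this list that were not called differed by -1.57 to -0.29, among them the keratins krt19 at -0.58 and krt8.1 at -0.29. Over the whole array no probe was called without simazine 1, simazine 3, control 1 or control 2, so that these counts were then 0. These lists were drawn up with earlier results of these data known, and their part in the levels of the egg chromatin genes was not tested.

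Genes of the testis itself were measured on all arrays. Sertoli cell genes had a mean level of -0.08 to 0.33 on the simazine arrays and of -0.03 to 0.40 on the control arrays, with none of 8 passing the test. Genes of spermatogonia and spermatocytes stood at 3.74 to 4.14 on the simazine arrays and at 4.02 and 4.07 on the control arrays, with none of 5 passing. Genes of spermatids and sperm stood at 2.32 to 2.94 on the simazine arrays and at 1.96 and 2.77 on the control arrays, with none of 10 passing and 1 reaching an unadjusted p under 0.05. Of all 6892 named genes tested, 291 reached an unadjusted limma p under 0.05. The ranges of the groups overlapped for all 3 of these lists. The mean level of the ovarian follicle genes was lower on every simazine array, at -0.55 to -0.36, against 0.01 and 0.03 on the control arrays. None of 5 passed, and 1 reached an unadjusted p under 0.05. This was vldlr, at -2.16 (limma adjusted p = 0.0757), singled out after its values were seen. The rest of this list differed by -0.61 to 0.41, and the median of the whole list was -0.09. The list mean without vldlr was not taken. The mean level of the pancreas and gut genes was higher on every simazine array, at -3.74 to -3.39, against -4.48 and -4.002 on the control arrays. None of the 6 tested passed, and 2 reached an unadjusted p under 0.05. These were the digestive enzyme genes prss3, at 2.44 (limma adjusted p = 0.0678), and cela3b, at 1.02 (limma adjusted p = 0.814), both singled out after their values were seen. On the control arrays prss3 stood at -7.41 and -7.50 and was well above background on only 1 of them. Its difference is therefore partly set by the background. The rest of this list differed by -0.19 to 0.63, and the list mean without prss3 was not taken. The part of these lists in the levels of the egg chromatin genes was not tested.

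**Figure D5:**
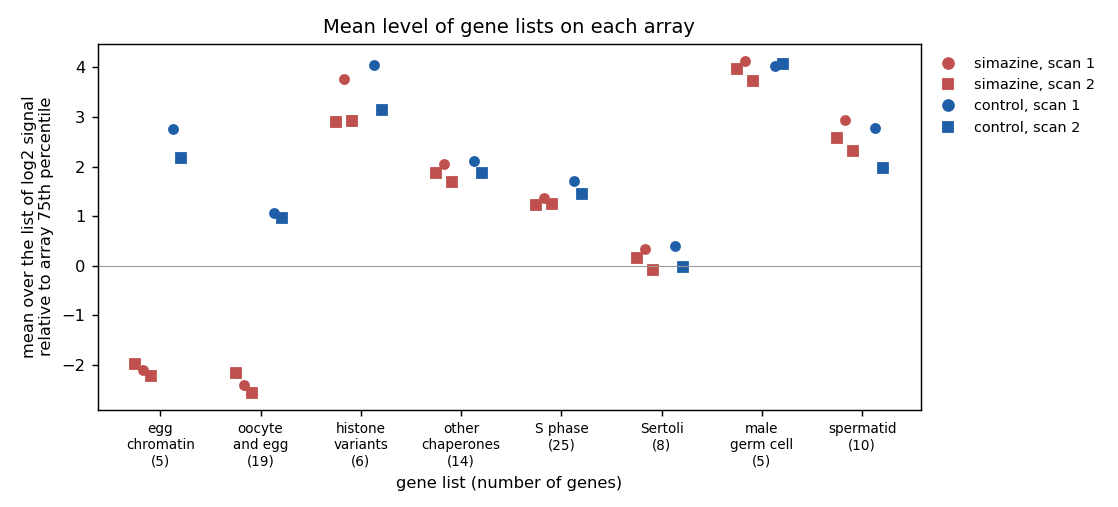
Mean level of each gene list on each array, as log2 signal relative to the array's 75th percentile (vertical axis), with the number of genes per list; colours mark the groups and symbols the scans. The egg chromatin, the oocyte and egg and the DNA replication (S phase) lists are lower on all simazine arrays than on both control arrays. For the last of them the gap is small (1.37 on simazine 2 against 1.45 on control 2) and is lost without mcm3. The groups overlap for the others of the 8 lists plotted.

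In the RefSeq annotation of assembly Xenopus_laevis_v10.1, used here only for names and gene order, both h1-8 homeologs lie between a rhodopsin gene, rho, and plxnd1. The gene h2ac17.L lies beside MGC82469 (synonym nit2b), which is followed by tbc1d23.L, and h2ac1.S lies between nit2.S and tbc1d23.S. The annotation also lists h1-8.L and npm2.S, for which no probe of the array carried a matching accession, and their levels were not analysed here.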

How the data were processed

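Testis RNA of 3 simazine and 2 control samples was measured on one-colour arrays. Per the file headers, Agilent Feature Extraction 10.7.3.1 produced the deposited processed signal, an intensity per spot after background subtraction; it also scaled away a spatial trend on the 3 arrays of the second scan and not on the 2 of the first. The authors' deposited value table holds log2 values of these signals with 1 constant subtracted per array; its scale and direction follow from the scanner files, and it served as an alternative. No genome build of the array design is stated in the labels or headers. Of 36331 accessions on the array, 10012 were named through RefSeq (Xenopus_laevis_v10.1). No column of another series was left unused (0).

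Log2 signals were centred on each array's 75th percentile over 43803 gene spots. Distorted areas were spots whose median deviation from the 5-array median, over 5 rows and 9 columns, passed 0.5 on any array (11190 spots). The group labels were not used for this. Marked spots were kept, because leaving them out leaves most egg chromatin probes with 1 control value. Spots of a probe were averaged; a probe had to be well above background on at least 2 of 5 arrays, and a gene took its brightest probe. Limma 3.58.1 in R 4.3.3 (lmFit, eBayes) compared simazine with control over 26996 probes, with Benjamini-Hochberg adjustment at 0.05. The number of arrays limits the precision. The procedure was tested on simulated data.

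The genes and all gene lists were chosen with earlier results of these data known. Named besides the egg chromatin genes were, per chromatin list, up to 4 called genes or otherwise the 2 with the smallest p, up to 2 called genes per marker list, and the 5 genes nearest to h1-8. The genes npm1, npm3 and lmnb3 and other probes of named genes were added after their values were seen. Marker lists of Leydig cells, blood, leukocytes and pancreas or gut were also summarised.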

Additional observations from a re-analysis of the deposited data

How the results depend on the processing

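The 9 egg chromatin probes kept a negative difference in all 149 alternative values, from -6.90 to -2.24, and 142 of these moved by less than the SD between arrays. The other 7 were h1-8 with marked spots left out (-5.08, with or without distorted areas), with normexp background correction (-5.01), within the first scan (-5.98) and within the second (-5.08), the probe A_10_P114181 of h2ac1 within the first scan (-6.70) and the probe A_10_P225303 of h1-3 with normexp (-2.24). The sign carries no weight, because the genes were chosen on this contrast. The groups lay at least 2.10 apart for every probe, so leaving out an array or a scan could not reverse it. Settings for distorted areas or dim probes also leave the level of a kept probe as it was. For h1-8, leaving out marked spots leaves the same arrays as the second scan, so these values are not separate. The number of probes called over the whole array changed widely between settings. It was 108 as reported, 1 with marked spots left out (1048 at an unadjusted p under 0.05 with distorted areas left out too, 2709 with them kept), 372 with distorted areas kept (244 lower, 128 higher), 17 with normexp on the median signal, 43 without the filter on dim probes, 258 with scan as a block and 0 within the second scan (1502 unadjusted). With 1 array left out it ran from 0 to 64: 0 without simazine 1 (730 unadjusted), simazine 3 (728), control 1 (618) or control 2 (794), and 64 without simazine 2. Where an arm kept 1 sample, limma assumed that it varied like the other group. The count of called replication genes was 1 as reported and 0 with marked spots left out, with a limit of 0.3 for distorted areas, with normexp, without the filter on dim probes and within the second scan, and 0 in each fit with 1 array left out. The counts of the other chromatin lists were 0 in every alternative run. The gene mcm3 was tested in 17 alternative runs, against 18 for cldn6.1. The 0 counts for the replication genes therefore came mostly from runs that tested mcm3 without calling it. A run that left mcm3 out would also count as 0. The median of other linker histones ran from -1.34 to -0.19 over the alternatives. The number of genes in it differed between runs. It was 2 as reported (-0.70), 1 with marked spots and distorted areas left out (-1.34) and 3 with distorted areas kept (-0.25). Within the first scan, with 1 array per group, the median was -0.19. The cause of the spread was not tested. No paired analysis was possible because the labels give no replicate numbers shared between the groups.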

Other observations

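One probe of npm1 (A_10_P003286), in a distorted area, had levels of 1.68, 2.10 and 1.63 in simazine testes, against -3.42 and -2.42 in control testes, a difference of 4.72 in the direction opposite to npm2, while the other 5 probes of npm1 differed by 0.13 to 0.64. It was singled out after its values were seen. Probes in distorted areas also moved far in both directions among the other egg nuclear proteins and chromatin modifiers, where 7 of 19 such probes were lower on every simazine array than on either control array. Of all probes with such areas kept, 10.6% were so, against 6.85% outside such areas. The share inside such areas alone lies above 10.6% and was not taken, so nothing is read from this count. Probes A_10_P136390 and A_10_P041951 of the chromatin protein gene hmgb2 differed by -5.04 and -4.08, while its brightest tested probe differed by -0.48. Probe A_10_P260222 of hmgn2 differed by -2.44, whereas A_10_P236518 of hmgb3 and A_10_P006349 of smarca5 differed by 3.89 and 3.48. They too were singled out after their values were seen. The maintenance methylation factor uhrf1 had the highest difference of its list, 1.96 (SE 1.29), but was well above background on 2 simazine arrays and on no control array, and its other probe, in a distorted area, differed by -2.35. Leydig cell genes stood at -2.20 to -1.32 on the simazine arrays and at -2.34 and -1.28 on the control arrays, with none of 2 passing the test. Blood and leukocyte genes had none of 7 and 3 tested that passed.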
